A study of Mus musculus with 25 samples.

Results

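The comparison described here sets tumour-infiltrating CD8+ T cells that lack both Prdm1 and c-Maf against cells that lack Prdm1 alone, and so asks what the loss of c-Maf adds once Prdm1 is gone. It uses 6 of the 25 libraries of the series, 3 from the double conditional knockout (Prdm1/c-Maf cDKO; C2, A1 and A2) and 3 from the single conditional knockout (Prdm1 cKO; A5, A6 and A9), chosen by the genotype written in the column names. Both groups carry the Prdm1 deletion, so that gene's loss is shared, and the c-Maf deletion separates them. All cells came from B16F10 melanoma, a transplanted mouse tumour line, grown in C57BL/6 mice. The 16 wild-type (WT) libraries serve as a background level and also entered the estimate of the spread. A further 3 libraries labelled c-Maf cKO entered only that estimate. Of those 3, C1 held Maf at 0.93, near the top of the WT range, against 0 in the other 2, B10 and B11. That goes against its label, but its macrophage marker score (mean log2(signal + 1) over macrophage markers) was higher too. This score was 5.14 in C1, 2.56 in B10 and 2.81 in B11, and the source of Maf RNA in C1 was not tested. Without C1, 70 genes were called, 57 of the 58 reported below among them. Libraries were prepared from bulk lysates of few cells with a modified SMART-Seq 2 protocol, a way to amplify whole cDNAs from little RNA. The line that deletes the floxed genes, the age and sex of the mice, and whether each library is a separate animal were not stated in the labels. The p-values below therefore measure the spread between libraries, which may be technical.

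Prdm1 encodes Blimp-1, a zinc-finger repressor that drives terminal effector differentiation of T cells. c-Maf, the product of Maf, is a basic leucine zipper factor that binds Maf recognition elements (MAREs) and related AP-1 sites, and in T cells it is best known for raising Il10 and other genes of regulatory programmes. Blimp-1 is also known for raising co-inhibitory receptor genes in exhausted CD8+ T cells. c-Maf is also expressed in macrophages.

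The deposited value is a normalised signal per gene, of unstated scale, so levels are compared within a gene and not between genes. Maf was listed at 0, 0.18 and 0.03 in the cDKO libraries C2, A1 and A2, against 1.09, 0.41 and 1 in the Prdm1 cKO libraries A5, A6 and A9. The cDKO mean was 8.4% of the Prdm1 cKO mean (0.07 ± 0.0964 and 0.833 ± 0.369, SD, n = 3 each), and WT libraries ran from 0.03 to 0.95. The groups did not overlap, but a two-sided exact permutation test of 3 against 3 cannot go below its p of 0.1, and Maf lay under the filter for low values. Prdm1 was 4.69, 1.18 and 3.27 in cDKO libraries and 4.71, 0.41 and 3.66 in Prdm1 cKO libraries, which overlapped fully (two-sided exact permutation test, p = 1), with a WT mean of 15.5 ± 5.31 (SD, n = 16). Thus the Maf values were ordered as the genotypes name them, and the Prdm1 values did not separate the groups. Macrophages also express c-Maf, and the macrophage marker score was 1.56 to 2.80 in cDKO and 5.09 to 6.49 in Prdm1 cKO libraries. What macrophage RNA added to these Maf values was not tested.

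The libraries differed in what else they held. Cd8a was 168, 70.1 and 81.8 in cDKO libraries and 126, 96.1 and 102 in Prdm1 cKO libraries, and Cd4 was at most 0.03 in the first and listed at 0 in the second, so the CD8 chains marked both groups and the CD4 co-receptor neither. The summed signal of 20 macrophage and monocyte markers ran from 640 to 1328 in cDKO libraries, from 1854 to 5616 in Prdm1 cKO libraries and from 545 to 3124 in WT libraries. Of the 19 that passed the filter for low values, 18 were lower in all 3 cDKO libraries than in all 3 Prdm1 cKO libraries, the exception being Ly6c2. Over all 10867 tested genes, 8.5% were lower in this way. The defining marker C1qa, a complement subunit of tissue macrophages, was 3.52, 2.65 and 0 in cDKO libraries and 49.0, 54.9 and 183 in Prdm1 cKO libraries. Erythroid markers ran the other way, with sums of 471 to 4271 in cDKO, 233 to 1847 in Prdm1 cKO and 9.88 to 1577 in WT libraries. The erythroid score of C2 (2.76) was nonetheless under those of all 3 Prdm1 cKO libraries (2.84 to 4.64). Sums of 13 dendritic cell markers were 803 to 900 in cDKO, 1969 to 6448 in Prdm1 cKO and 154 to 2681 in WT libraries. Of the 9 tested, 4 lay below Prdm1 cKO in every cDKO library (background 8.5%). In the other direction, 1 lay above Prdm1 cKO in every cDKO library (background 6.99%), so the sum pools members that moved in opposite directions. All 12 melanoma markers had a negative log2 fold change (median -0.62, but 0.27 without C2), with overlapping sums of 128 to 1742 in cDKO and 813 to 1665 in Prdm1 cKO libraries. The part of these cell types in the results below was not tested. Across genes, A1 and A2 correlated at Pearson r = 0.96, whereas C2 correlated with either at 0.89, no closer than cDKO libraries stood to Prdm1 cKO libraries (0.86 to 0.93). Column totals were 440900 to 476000 in cDKO and 427700 to 464900 in Prdm1 cKO libraries, and the number of reads behind them is unknown. In bulk RNA, fewer cells of a type and less RNA per cell cannot be told apart.

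**Figure D1:**
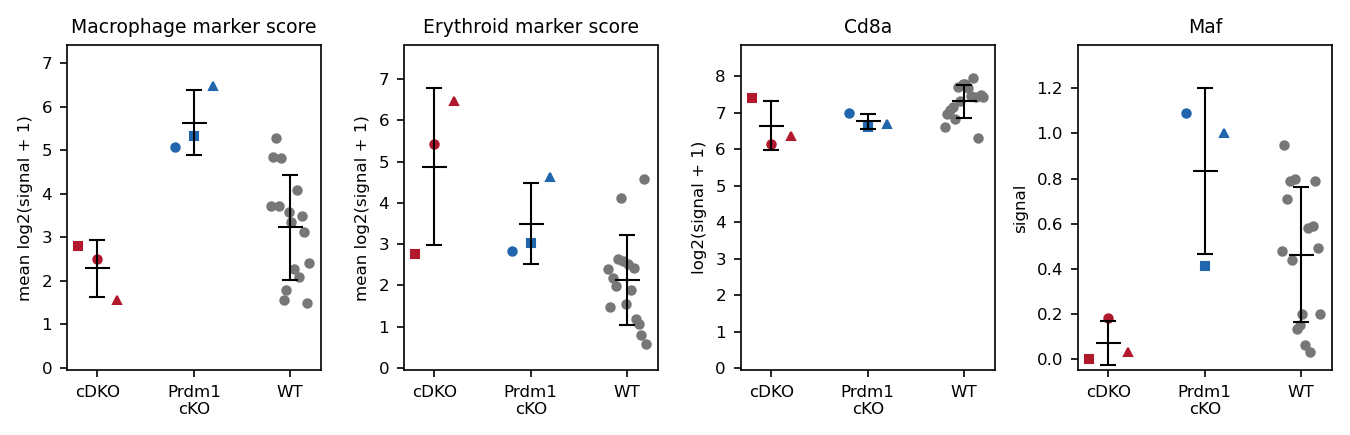
Macrophage and erythroid marker scores (mean log2(signal + 1) over each list), Cd8a (log2(signal + 1)) and Maf (signal) in each library, with cDKO (red) left of Prdm1 cKO (blue) and WT (grey); symbols separate the libraries, with squares for C2 and A6, circles for A1 and A5, and triangles for A2 and A9, and black bars give mean and SD. The macrophage score is 1.56 to 2.80 in cDKO, 5.09 to 6.49 in Prdm1 cKO and 1.49 to 5.29 in WT libraries, while Cd8a overlaps between both knockout groups.

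Of 10867 genes with a value of at least 1 in 3 or more of the 6 libraries, 58 (0.534%) passed an adjusted p of 0.05 in limma on log2(signal + 1), with 10 higher in cDKO (0.092%) and 48 lower (0.442%). The median log2 fold change over all tested genes was -0.00, with 5388 positive and 5479 negative, and 1405 genes had an unadjusted p under 0.05. Values of all 3 cDKO libraries lay above all 3 Prdm1 cKO libraries for 760 genes (6.99%) and below them for 924 (8.5%); 57 of the 58 called genes were among these, and Pgd overlapped. The count hung on single libraries: it was 91 without C2, 20 without A1, 3 without A2, 9 without A5, 128 without A6 and 10 without A9. The genes called without A2 were Retnla, Ctsb and Slc4a11. The direction of each of the 58 was the same under every alternative in which the gene was tested. For the 57 without overlap, leaving out a library or changing the pseudocount could not have turned it.

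Set against WT, the 48 lower genes split. In 13 of them, every cDKO library lay below all 16 WT libraries while Prdm1 cKO libraries overlapped WT; they include Penk, Nr4a2, Cd70, Ccrl2, Ctsb and Capg. In 8 others, every Prdm1 cKO library lay above all WT libraries while cDKO libraries overlapped WT, among them Retnla, Dpep2, Fcna, Cysltr1 and Slc4a11. In the remaining 27, both knockout groups overlapped WT. The WT mean lay between both knockout means for 46 of the 48. Of the 10 higher genes, 7 were above all WT libraries in every cDKO library and overlapped WT in Prdm1 cKO. These positions were read off after the genes had been called and carry no test. They were not counted over all tested genes, so no background share stands beside them.

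Among the genes that fell were several with known roles in activated lymphocytes. Penk encodes proenkephalin, the precursor of the enkephalin opioid peptides, and had 0.66, 2.19 and 0 in the cDKO libraries C2, A1 and A2, against 53.5, 18.3 and 22.4 in the Prdm1 cKO libraries A5, A6 and A9. The highest cDKO library was under the lowest Prdm1 cKO library and under the lowest WT library (6.94, WT median 24.6), and the log2 fold change was -4.06 ± 0.80 (SE; limma, adjusted p = 0.026). Nr4a2, an orphan nuclear receptor induced by T cell receptor signals and linked to T cell exhaustion, had 14.7, 13.5 and 13.5 in cDKO and 55.4, 36.8 and 50.4 in Prdm1 cKO libraries. The cDKO values were tightly grouped below the WT range of 20.8 to 89.9, and the log2 fold change was -1.69 ± 0.39 (adjusted p = 0.0434). Cd70, the ligand of the co-stimulatory receptor CD27, had 0.28, 0.26 and 0.56 in cDKO and 11.8, 5.52 and 3.81 in Prdm1 cKO libraries, again without overlap (log2 fold change -2.44 ± 0.44, adjusted p = 0.0167). Cd70 lay below its WT range of 2.58 to 15.2 in each cDKO library. It was picked for mention after its values were seen, as were Ctsb, Slc4a11 and Capg.

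Areg encodes amphiregulin, an EGF receptor ligand made by several lymphocyte types in tissue repair. It had 0, 0.18 and 0 in cDKO and 12.5, 5.09 and 8.89 in Prdm1 cKO libraries (log2 fold change -3.14 ± 0.66, adjusted p = 0.026). WT libraries spread from 0 to 10.2 and so overlapped both groups. Itgb1, the integrin beta1 chain that pairs with many alpha chains, was 46.8, 45.3 and 49.0 in cDKO and 141, 71.2 and 92.8 in Prdm1 cKO libraries (log2 fold change -1.04 ± 0.22, adjusted p = 0.026). Ccrl2, an atypical receptor that binds chemerin without known signalling of its own, was 4.97, 3.50 and 4.55 in cDKO and 13.1, 24.0 and 56.1 in Prdm1 cKO libraries (log2 fold change -2.36 ± 0.52, adjusted p = 0.0349). Neither gene overlapped between the groups. Of Nr4a2, Ccrl2 and Itgb1, which were the called members of the T cell gene lists, all 3 were called without A6, Ccrl2 and Itgb1 without C2, Ccrl2 without A5, and none without A1, A2 or A9 (adjusted p from 0.0958 to 0.217 over those 3 settings). With the macrophage and erythroid scores as covariates, none of the 3 was called (limma, adjusted p from 0.511 to 0.644). Penk was called without C2, A1 and A6 but not without A2, A5 or A9; Areg without C2 and A6; and Cd70 without C2, A1, A6 and A9.

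**Figure D2:**
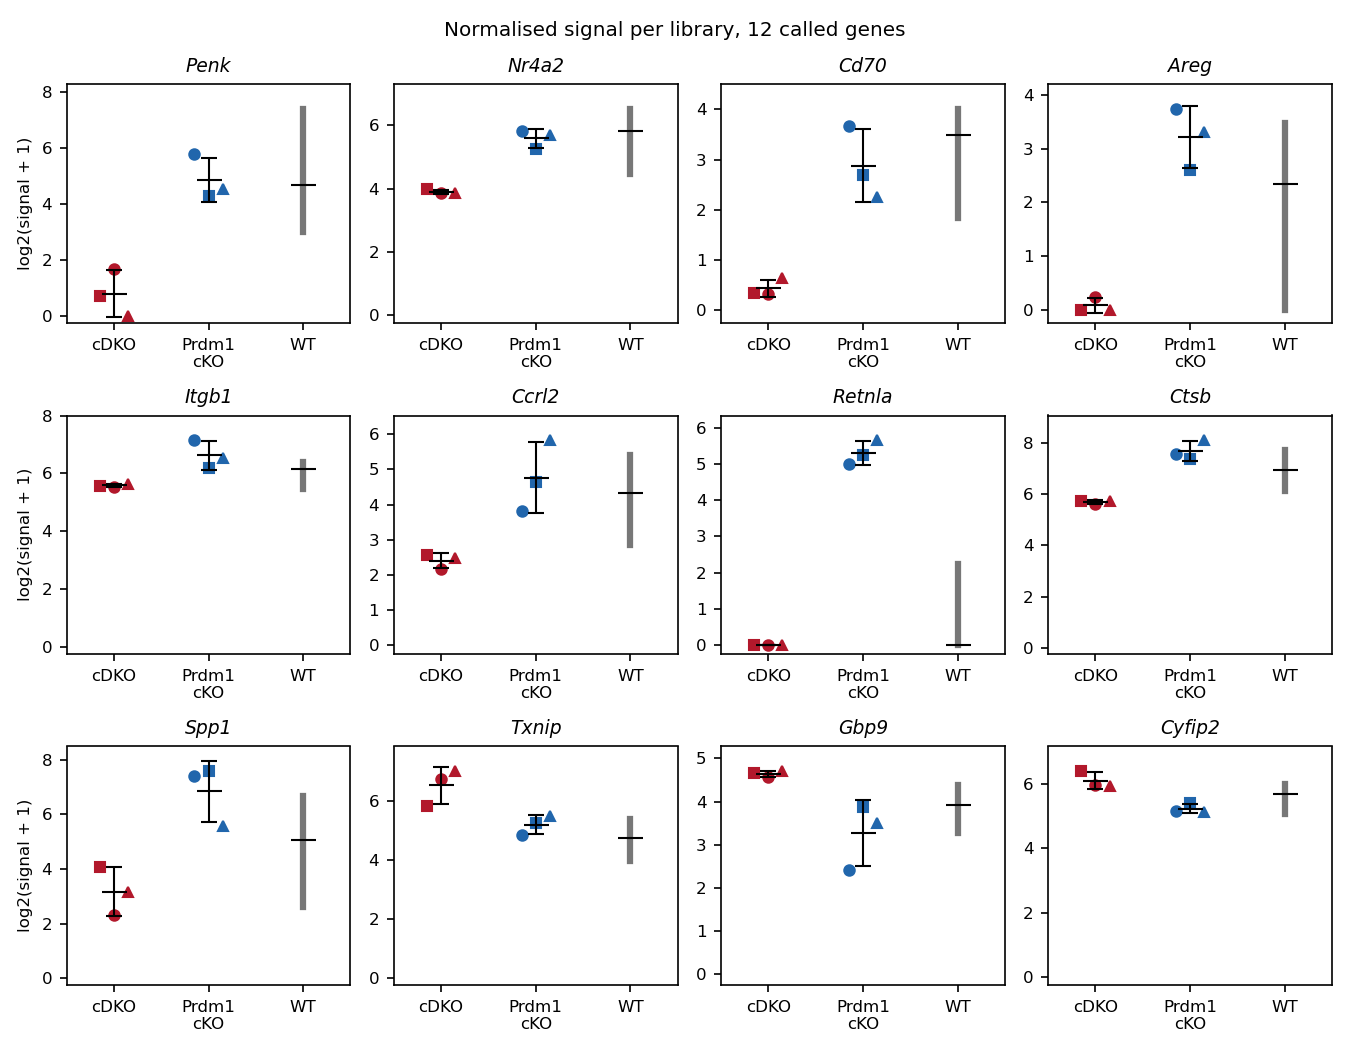
Log2(signal + 1) of 12 called genes in each library, cDKO (red) left of Prdm1 cKO (blue), with squares for C2 and A6, circles for A1 and A5 and triangles for A2 and A9; black bars are mean and SD, and the grey bar spans the 16 WT libraries with the median marked. Penk, Nr4a2, Cd70, Ccrl2 and Ctsb lie below the whole WT range in cDKO, Retnla is above it in Prdm1 cKO, and Txnip and Gbp9 are above it in cDKO.

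Other genes that fell are known from macrophages and other myeloid cells. Retnla encodes FIZZ1, a secreted mark of alternatively activated macrophages, and was listed at 0 in all 3 cDKO libraries against 31.3, 36.9 and 49.7 in Prdm1 cKO libraries (adjusted p = 0.00069). WT libraries held at most 3.68, so the Prdm1 cKO libraries stood apart from both other groups. Mgl2, a C-type lectin of the same macrophage state, was 0.11, 0.24 and 0 in cDKO and 11.1, 17.6 and 54.8 in Prdm1 cKO libraries (log2 fold change -4.38 ± 0.99, adjusted p = 0.0439). Spp1, which encodes osteopontin, was 15.9, 3.93 and 7.79 in cDKO and 167, 189 and 46.1 in Prdm1 cKO libraries (log2 fold change -3.67 ± 0.84, adjusted p = 0.047). All 3 genes separated the groups, and Retnla and Mgl2 are themselves members of the macrophage marker list. Ctsb, the lysosomal protease cathepsin B, was 52.2, 48.5 and 52.7 in cDKO and 192, 166 and 276 in Prdm1 cKO libraries (log2 fold change -1.99 ± 0.32, adjusted p = 0.00528). Ctsb and Retnla were each called in 17 of 20 alternatives, the highest count among the 58. Further falls, with log2 fold changes from -3.65 to -2.73 and adjusted p from 0.026 to 0.04999, were those of the metalloprotease inhibitor Timp1, the myelin protein Pmp22, the leukotriene-cleaving dipeptidase Dpep2, AI607873, the ribonuclease Rnase4, the membrane protein Emp1 and Cd83, a glycoprotein of activated antigen-presenting cells and lymphocytes. Of the 12 largest falls, 8 were called without C2, 4 without A1, 10 without A6, and only Retnla without A2, A5 or A9.

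The part of macrophage RNA in these falls was not tested. Its markers can be followed in the WT libraries, which take no part in the direction of the comparison. For each called gene, its log2(signal + 1) was correlated over the 16 WT libraries with the mean of the macrophage markers, leaving the gene itself out. No such correlation was computed for genes that were not called, so the counts that follow have no background share beside them. Of the 48 lower genes, 44 had a positive r, the median r was 0.47, and 17 passed an adjusted p of 0.05 by both Pearson's r and Spearman's rho (permutation tests with 100000 resamples, adjusted over 58 relations). The median r was 0.48 without the 2 libraries farthest from the median score, 0.62 over the 7 WT libraries whose code starts with A and 0.36 over the 9 whose code starts with B. AI607873 (r = 0.94), Ctsb (0.93), Cysltr1 (0.83), Ctsc (0.83), Dpep2 (0.81), Trim47 (0.81), Mgl2 (0.80) and Spp1 (0.77) were among the highest values, and Retnla had 0.62. For Ctsb, rho was 0.94, the p of either was 1e-05, the smallest the resamples can give, and r was 0.90 without the 2 farthest libraries. Cd83, which lymphocytes also express, had r = 0.65 and rho = 0.69 and passed (adjusted p = 0.0221 and 0.0152). At the low end, r was -0.14 for Snap23, -0.13 for Cd70, -0.03 for Plxdc2 and for Slc4a11, 0.00 for Pgam5, 0.01 for Areg, 0.05 for Penk, 0.09 for Itgb1 and 0.14 for Nr4a2, and none of these passed. Low values thus occurred in genes of varied known roles. Ccrl2 lay between, at r = 0.36 and rho = 0.25, and r was -0.08 without the 2 farthest libraries. Of the 10 higher genes, none passed, and their median r was -0.08.

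**Figure D3:**
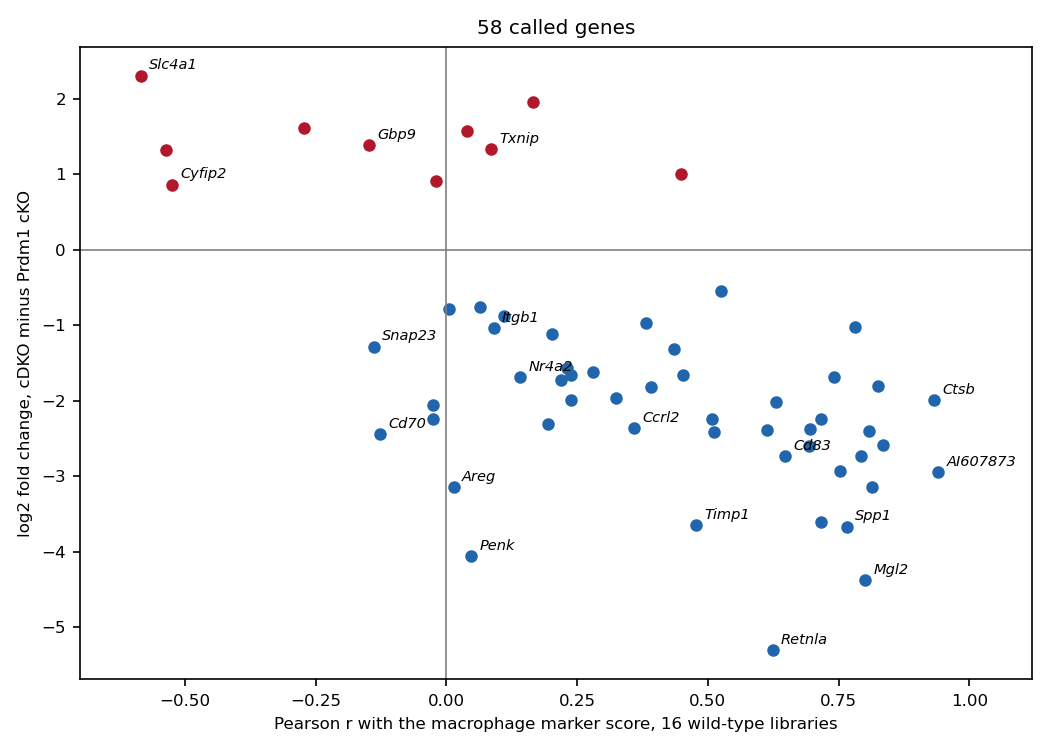
Log2 fold change of cDKO minus Prdm1 cKO (vertical axis) against Pearson's r with the macrophage marker score over the 16 WT libraries (horizontal axis) for the 58 called genes, red where higher in cDKO and blue where lower. Snap23, Penk, Areg, Cd70, Nr4a2 and Itgb1 fell with r from -0.14 to 0.14, whereas Cd83, Mgl2, Spp1, Ctsb and AI607873 fell with r from 0.65 to 0.94.

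Because c-Maf binds MAREs, promoter windows of the called genes were searched for the MARE core TGCTGA on both strands and for the AP-1 site TGANTCA; both lie within the full palindromic MARE and can overlap there. Windows ran from 250 bases before to 50 after a RefSeq transcript start (GRCm38.p6), and a gene counted if any of its windows held the motif. The MARE core stood in 10 of the 35 lower genes that had a window (28.6%), in 0 of 7 higher genes with one, in 17.9% of 8781 tested genes with one and in 19.5% of all 32851 windows. The AP-1 site stood in 1 of the 35 (2.86%), in 0 of the 7, in 6.23% of the tested genes and in 7.81% of all windows. The 10 were AI607873, Areg, Cst3, Fcna, Fcrls, Lilra6, Mfsd12, Pmp22, Retnla and Trim47, and the counts are a description with no test. Shown are the plus-strand windows of Areg (chr5:91139349-91139648), one of the lymphocyte-linked falls, and Retnla (chr16:48842359-48842658), the largest fall, with the MARE core, here as its reverse complement TCAGCA, in capitals, and the minus-strand window of Nr4a2 (chr2:57123954-57124253), which fell too and holds neither motif in this window.
Areg: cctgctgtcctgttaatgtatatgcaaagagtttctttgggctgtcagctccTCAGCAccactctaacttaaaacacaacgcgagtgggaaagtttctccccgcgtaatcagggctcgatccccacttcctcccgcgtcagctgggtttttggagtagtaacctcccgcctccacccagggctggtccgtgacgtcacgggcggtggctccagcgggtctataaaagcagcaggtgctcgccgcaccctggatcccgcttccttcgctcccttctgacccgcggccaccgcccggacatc
Retnla: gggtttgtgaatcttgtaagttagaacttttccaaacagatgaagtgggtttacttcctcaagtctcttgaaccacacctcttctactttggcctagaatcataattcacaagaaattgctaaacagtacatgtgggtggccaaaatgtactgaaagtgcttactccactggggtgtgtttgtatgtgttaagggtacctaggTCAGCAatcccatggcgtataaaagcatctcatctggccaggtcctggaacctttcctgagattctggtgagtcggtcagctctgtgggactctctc
Nr4a2: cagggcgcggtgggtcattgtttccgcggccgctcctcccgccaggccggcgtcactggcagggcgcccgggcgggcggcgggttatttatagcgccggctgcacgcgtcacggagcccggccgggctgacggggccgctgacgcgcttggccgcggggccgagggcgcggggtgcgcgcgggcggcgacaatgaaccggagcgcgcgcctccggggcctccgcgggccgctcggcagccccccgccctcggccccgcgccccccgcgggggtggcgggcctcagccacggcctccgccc
The match starts 198 bases before the annotated start in Areg and 47 before it in Retnla. A match says nothing of binding in these cells, and the absence of one in a window says nothing of c-Maf elsewhere at the gene.

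Fewer genes rose in cDKO, and their changes were smaller. Txnip, which encodes a thioredoxin-binding protein that restrains glucose uptake, had 56.1, 108 and 130 in cDKO and 27.9, 37.7 and 44.2 in Prdm1 cKO libraries (log2 fold change 1.34 ± 0.32, adjusted p = 0.04999). All cDKO libraries exceeded the highest WT library, at 41.2, with C2 the lowest of them. Gbp9, an interferon-inducible guanylate-binding GTPase, had 24.3, 22.8 and 25.2 in cDKO and 4.31, 13.7 and 10.3 in Prdm1 cKO libraries (log2 fold change 1.39 ± 0.29, adjusted p = 0.026). It too lay above the WT maximum of 19.8 in each cDKO library. Cyfip2, an actin-regulating protein of the WAVE complex, had 83.2, 61.7 and 59.98 in cDKO and 34.8, 41.4 and 34.2 in Prdm1 cKO libraries (log2 fold change 0.86 ± 0.19, adjusted p = 0.033). The largest rise was that of Slc4a1, the band 3 anion exchanger of red cells, with 1.66, 5.46 and 13.6 in cDKO and 0, 0 and 1.07 in Prdm1 cKO libraries (log2 fold change 2.31 ± 0.41, adjusted p = 0.0162). Slc4a1 is a member of the erythroid list, whose 7 tested members were all positive, with a median log2 fold change of 1.42 (2.48 without C2, 0.73 without A2 and 0.55 without A5). The part of red cell RNA in this rise was not tested. The other 6 were the replication-dependent histone gene Hist1h4c, 2010016I18Rik, the cannabinoid receptor gene Cnr2, Tmem71, the glyoxylate reductase gene Grhpr and Tex10, with log2 fold changes from 0.91 to 1.96 and adjusted p from 0.0228 to 0.047. Of the 10 rises, 8 were called without C2, 3 without A1, 0 without A2, 1 without A5 (Hist1h4c), 7 without A6 and 3 without A9. In a limma fit of the 6 libraries alone, 0 of the 10 were called (adjusted p from 0.0544 to 0.215). After rescaling to the CD3 genes, 3 of the 10 were called.

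Co-inhibitory receptors restrain T cells when their ligands are bound. None of the 19 tested co-inhibitory receptors was called in either direction; 13 were negative and 6 positive, with a median log2 fold change of -0.75, against -0.00 over all genes. Pdcd1, which encodes PD-1, was 42.9, 19.3 and 16.9 in cDKO and 139, 26.5 and 45.1 in Prdm1 cKO libraries (log2 fold change -1.16 ± 0.63, adjusted p = 0.463). The ranges overlapped through C2 and A6, and the WT mean was 196. Lag3, an inhibitory receptor for MHC class II, was 24.2, 5.76 and 4.33 in cDKO and 87.2, 19.2 and 8.88 in Prdm1 cKO libraries (log2 fold change -1.43 ± 0.67, adjusted p = 0.373), with a WT mean of 120. In A5 both genes were far above the other knockout libraries. Log2 fold changes were -0.44 for Havcr2 (TIM-3), -0.75 for Cd244 (2B4), 0.14 for Tigit and 0.09 for Ctla4, with adjusted p from 0.659 to 0.957. The signs of Tigit and Ctla4 turned when A2 or A6 was left out (Tigit -0.07 and -0.22; Ctla4 -0.00 and -0.36). In the same list, 4 genes (Pdpn, Cd200r1, Procr and Cd200) were below Prdm1 cKO in every cDKO library, against a background of 8.5%, and none was called. Procr, the protein C receptor gene, was 0, 0.59 and 0 in cDKO and 3.14, 4.06 and 1.51 in Prdm1 cKO libraries (adjusted p = 0.0854), and Pdpn, which encodes podoplanin, was 0, 2.56 and 1.81 in cDKO and 15.9, 8.54 and 5.97 in Prdm1 cKO libraries (adjusted p = 0.141). The list's median ran from -1.28 to -0.11 over the 20 alternatives. The macrophage markers given above moved the same way, and with their score as a covariate the median was -0.72. As the scores of both knockout groups do not overlap, what macrophage RNA added to this median was not tested.

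Of 9 tested genes of inhibitory cytokines and ectonucleotidases, none was called. Entpd1, which encodes the ectonucleotidase CD39, was 3.65, 1.76 and 2.15 in cDKO and 5.97, 6.60 and 18.6 in Prdm1 cKO libraries (log2 fold change -1.56 ± 0.48, adjusted p = 0.128). The groups did not overlap, and both were under the WT mean of 31.8. Ebi3, a subunit of the cytokines IL-27 and IL-35, was 0.80, 0.09 and 0 in cDKO and 5.73, 8.03 and 5.30 in Prdm1 cKO libraries (adjusted p = 0.0686). The macrophage markers moved the same way as Entpd1 and Ebi3, and what macrophage RNA added to their values was not tested. Il10, a known c-Maf target in CD4+ T cells, was under the filter, with 0, 0.59 and 0.82 in cDKO and 0.22, 0.07 and 2.77 in Prdm1 cKO libraries, which overlapped.

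Naive, memory and stem-like genes leaned the other way. Of 20 tested, none was called; 16 were positive, the median log2 fold change was 0.34, and 6 lay above Prdm1 cKO in every cDKO library (among them Tcf7, Il7r, Ccr7, S1pr1 and Lef1), against a background of 6.99%. Tcf7, which encodes the stem-like T cell factor TCF-1, was 187, 197 and 218 in cDKO and 122, 167 and 122 in Prdm1 cKO libraries (log2 fold change 0.56 ± 0.38, adjusted p = 0.578). Il7r, the receptor chain for the survival cytokine IL-7, was 98.6, 96.0 and 96.5 in cDKO and 37.5, 66.5 and 71.4 in Prdm1 cKO libraries (log2 fold change 0.77 ± 0.44, adjusted p = 0.481). In Tcf7, A6 came closest to the cDKO libraries, and in Il7r, A5 was lowest. The WT means were 58.01 for Tcf7 and 22.5 for Il7r, under every library of both knockout groups. Ccr7, a chemokine receptor for lymph node homing, was 549, 633 and 753 in cDKO and 429, 470 and 200 in Prdm1 cKO libraries (adjusted p = 0.381). Bcl6, a repressor that promotes follicular helper and memory fates, was alone in lying below Prdm1 cKO in every cDKO library. The list's median stayed between 0.21 and 0.71 over the 20 alternatives.

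**Figure D4:**
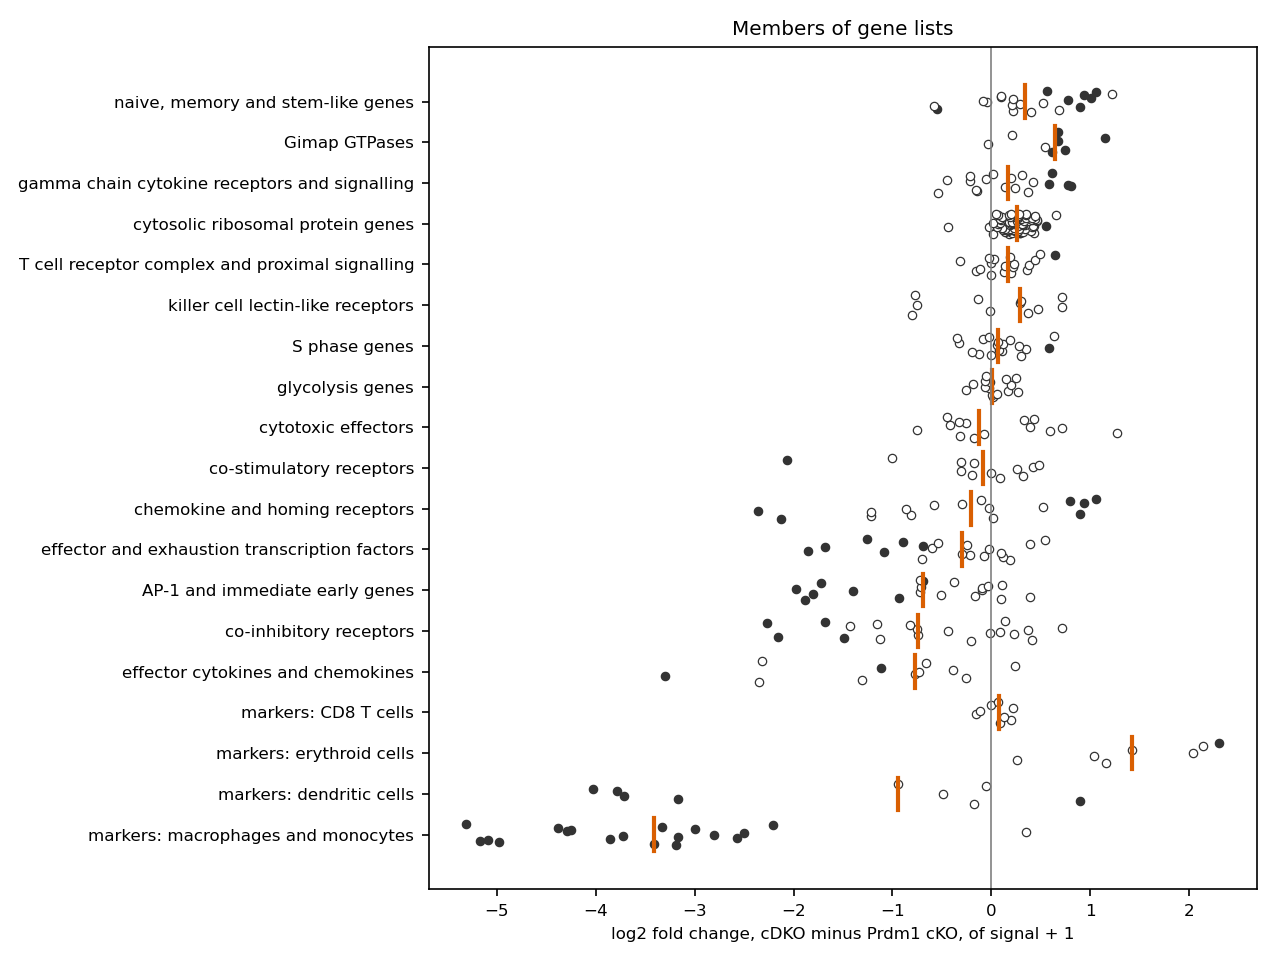
Log2 fold change, cDKO minus Prdm1 cKO, of each tested member of 19 gene lists (points; filled where the 3 cDKO and 3 Prdm1 cKO values do not overlap) with the list median (orange bar). Medians are 0.34 for naive, memory and stem-like genes and 0.64 for Gimap genes, -0.75 for co-inhibitory receptors, and -3.41 for macrophage markers against 0.08 for CD8 T cell markers.

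The Gimap genes, which encode GTPases of lymphocyte survival clustered at a single locus, had the highest median of the T cell lists without covariates. Of 8, none was called, 7 were positive and 5 lay above Prdm1 cKO in every cDKO library (Gimap1, Gimap3, Gimap6, Gimap7 and Gimap9), against a background of 6.99%, with a median log2 fold change of 0.64 (0.10 to 0.73 over the alternatives). With the macrophage and erythroid scores as covariates, the Gimap median was 0.10 and that of naive, memory and stem-like genes 0.66. With the run of columns of the deposited table as a covariate, these medians were 0.24 and 0.71. Gimap7 was 81.0, 44.0 and 52.3 in cDKO and 22.5, 24.4 and 29.0 in Prdm1 cKO libraries (log2 fold change 1.15 ± 0.43, adjusted p = 0.225). As neighbours in the genome they are not separate observations. Among 18 common gamma chain receptor and signalling genes, none was called, and Il7r, Il4ra, Jak1 and Stat5b lay above Prdm1 cKO in every cDKO library (background 6.99%). Il4ra, the IL-4 receptor chain, was 94.2, 117 and 116 in cDKO and 45.9, 77.8 and 65.8 in Prdm1 cKO libraries (adjusted p = 0.173). Of 74 cytosolic ribosomal protein genes none was called and 72 were positive, with a median of 0.26, which ran from 0.16 to 0.41 over the alternatives.

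Cytotoxic genes overlapped between the groups. Of 14 cytotoxic effector genes, 0 were called and 0 were without overlap in either direction, and the list's median of -0.12 turned to a positive value without A1 or A5. Gzmb, which encodes granzyme B, was 47.3, 8.49 and 12.5 in cDKO and 5.68, 7.18 and 32.2 in Prdm1 cKO libraries (log2 fold change 0.59 ± 0.72, adjusted p = 0.811), and -0.11 without C2. Prf1, the pore-forming perforin, was 18.1, 10.2 and 11.8 in cDKO and 11.5, 21.2 and 18.3 in Prdm1 cKO libraries (adjusted p = 0.916). The WT means were 480 for Gzmb and 212 for Prf1, above every library of both knockout groups. Of 11 effector cytokines and chemokines, 0 were called, but 10 were negative, with a median log2 fold change of -0.78 (-1.36 without C2 and -0.50 without A2), and Ccl9 and Tnf lay below Prdm1 cKO in every cDKO library (background 8.5%). Without C2, 2 of the 11 were called lower. Ccl9, a chemokine that myeloid cells make in quantity, was 7.38, 3.93 and 3.41 in cDKO and 38.4, 38.9 and 109 in Prdm1 cKO libraries (log2 fold change -3.30 ± 0.86, adjusted p = 0.0744). The macrophage markers moved the same way, and with their score as a covariate the list's median was -0.82. What macrophage RNA added to this list was not tested, as the scores of both knockout groups do not overlap. Ifng was 39.3, 1.65 and 4.71 in cDKO and 15.2, 10.3 and 14.4 in Prdm1 cKO libraries (log2 fold change -0.74 ± 0.71, adjusted p = 0.741). Cxcr6, a chemokine receptor of tissue T cells, was 56.7, 8.68 and 12.8 in cDKO and 29.4, 10.95 and 38.4 in Prdm1 cKO libraries (log2 fold change -0.30 ± 0.61, adjusted p = 0.898). In Gzmb, Ifng and Cxcr6, C2 was the highest of all 6 libraries, and without A1 the log2 fold change was 0.10 for Ifng and 0.21 for Cxcr6.

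Among 19 effector and exhaustion transcription factors, Nr4a2 was called (background 0.442%) and 6 lay below Prdm1 cKO in every cDKO library (Irf8, Nr4a2, Zeb2, Irf4, Tox and Nr4a3; background 8.5%). Irf4, a factor that scales with T cell receptor signal strength, was 18.6, 5.58 and 6.45 in cDKO and 19.9, 20.9 and 19.3 in Prdm1 cKO libraries (log2 fold change -1.09 ± 0.34, adjusted p = 0.136). Tox, a driver of the exhausted state, was 10.1, 12.6 and 10.6 in cDKO and 48.0, 15.5 and 12.9 in Prdm1 cKO libraries (log2 fold change -0.89 ± 0.54, adjusted p = 0.52), with A5 apart from A6 and A9. Of 19 AP-1 and immediate early genes, 0 were called and 7 lay below Prdm1 cKO in every cDKO library (Ier3, Atf3, Egr2, Klf4, Fosb, Dusp1 and Nfkbia; background 8.5%). Egr2, an early growth response factor of T cell receptor signalling, was 4.51, 3.53 and 3.60 in cDKO and 11.4, 12.2 and 28.6 in Prdm1 cKO libraries (log2 fold change -1.80 ± 0.46, adjusted p = 0.0619). The median of this list was -0.69, and it was positive, at up to 0.20, when the macrophage score was a covariate with or without the erythroid score. Several of these genes are also expressed by macrophages, whose markers moved the same way, and what macrophage RNA added was not tested.

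Among 18 Maf family members and bZIP partners none was called, and 3 lay below Prdm1 cKO in every cDKO library (background 8.5%), among them Atf3 and Fosb. The list's log2 fold changes ran from -3.00 to 0.21, with a median of -0.21. The median was 0.06 with the run of columns of the deposited table as a covariate. It was 0.22 with the macrophage and erythroid scores and 0.25 with the macrophage score alone. What macrophage RNA added to this list was not tested. Atf3, a stress-induced bZIP factor, was 11.5, 12.7 and 11.9 in cDKO and 40.3, 37.9 and 68.3 in Prdm1 cKO libraries (log2 fold change -1.88 ± 1.09, adjusted p = 0.498). The small Maf genes Maff, Mafg and Mafk and both Bach genes overlapped between the groups. Of 16 chemokine and homing receptors, Ccrl2 was called (background 0.442%). Of the 16, 4 lay above Prdm1 cKO in every cDKO library (background 6.99%), among them Ccr7, S1pr1 and S1pr4, and 2 lay below it (background 8.5%), Ccrl2 and Ccr2. Summed, the list's signal was 1192 to 1430 in cDKO and 753 to 1039 in Prdm1 cKO libraries. S1pr4, a sphingosine-1-phosphate receptor, was 88.5, 62.1 and 84.4 in cDKO and 33.0, 54.4 and 48.2 in Prdm1 cKO libraries (adjusted p = 0.19). Ccr2, which guides cells to inflamed tissue, was 3.84, 3.81 and 3.77 in cDKO and 18.8, 10.2 and 40.8 in Prdm1 cKO libraries (adjusted p = 0.0749). The macrophage markers moved the same way as Ccr2, and what macrophage RNA added to its values was not tested. Of 14 integrin and residency genes, Itgb1 was called (background 0.442%). Cd44, the hyaluronan receptor of antigen-experienced T cells, was 31.0, 38.4 and 40.0 in cDKO and 70.9, 50.1 and 109 in Prdm1 cKO libraries (limma, adjusted p = 0.0744). No member was called among 12 co-stimulatory receptors, 18 T cell receptor genes, 11 killer cell lectin-like receptors, 18 S phase genes, 20 G2 and M phase genes, 15 glycolysis genes, 12 heat shock genes, 18 interferon-stimulated genes or 7 c-Maf-associated genes of CD4+ T cells.

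The groups also sit in different runs of columns of the deposited table, each following its own set of WT libraries, and no run holds both, so a value within a run cannot be given. What a run stands for is not stated. By the letter of the library code, A1 and A2 share A with all Prdm1 cKO libraries. With that letter as a covariate, added after seeing the data, 181 genes were called, 57 of the 58 among them. With the run as a covariate, which ties the groups through the WT libraries of each run, 0 genes were called (limma); 1048 had an unadjusted p under 0.05, all 58 among them and with the same sign, and the smallest adjusted p was 0.152. With the macrophage and erythroid scores as covariates, 0 genes were called, 814 had an unadjusted p under 0.05, 51 of the 58 among them, and the smallest adjusted p was 0.108. The macrophage scores of both knockout groups do not overlap, so within these 6 libraries score and genotype cannot be told apart. No gene was called both with and without these covariates.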

How the data were processed

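Tumour-infiltrating CD8+ T cells were profiled by bulk RNA sequencing. Per the submitters' processing notes, TopHat, RSEM and DESeq were used with the mouse build mm9; neither versions nor the order of steps are recorded in the labels. The authors deposited a normalised signal per gene symbol and library (23366 symbols), whose scale is not stated and whose low values scale with transcript length; it is not a count, so count tests were not run. Columns were assigned to genotypes by their names. Genes with at least 1 in 3 or more of the 6 libraries were tested on log2(signal + 1) with limma 3.58.1 (R 4.3.3; trend and robust options) in one fit of all 25 libraries by genotype, with Benjamini-Hochberg adjustment over 10867 genes, and fold changes on this scale understate those of low genes. Maf and Prdm1 had exact permutation tests. Named genes were Maf, Prdm1, the up to 12 largest called rises and falls without overlap, called members of T cell lists, genes called both with and without marker scores (0), and 16 genes of effector, exhausted and memory T cells, of which 1 is not reported here. The members and lists were chosen with earlier results of these data known. Alternatives varied the pseudocount, filter, scaling, libraries, weights and covariates. Promoter sequences are RefSeq's (GRCm38.p6), and mm9 coordinates are not used.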

Additional observations from a re-analysis of the deposited data

How the results depend on the processing

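The count of 58 called genes (10 higher and 48 lower in cDKO) was 120 (26 and 94) with a pseudocount of 10, 91 (17 and 74) without a filter on low values, 37 with 29 lower at a minimum value of 10, 96 (1 and 95) in a fit of the 6 libraries alone and 117 (22 and 95) with array weights. Of the 96 genes called in the fit of the 6 libraries alone, 26 were among the 58. Rescaling to the CD3 genes left 6 higher. The count was 0 (0 and 0) with the run of columns, or with the macrophage and erythroid scores, as covariates. Of 3 alternatives added after seeing the data, leaving out C1, labelled c-Maf cKO, gave 70 (12 and 58), the macrophage score alone gave 0 (0 and 0) and the letter of the library code gave 181 (24 and 157). Leaving out 1 library at a time gave 3 to 128 genes, 0 to 42 higher and 3 to 86 lower. A pseudocount of 0.1, median-of-ratios factors and a fit without trend or robust options kept the count within 1.5 times. The cause was not tested.

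The difference of Maf stayed between -0.975 and -0.635 with 1 library left out, and that of Prdm1 ran from -1.14 to 1.053. Signs turned for genes that were never called: with 1 library left out, log2 fold changes ran from -0.11 to 1.31 for Gzmb, -0.22 to 0.55 for Tigit, -0.36 to 0.51 for Ctla4, -1.86 to 0.10 for Ifng and -1.07 to 0.21 for Cxcr6, and Tigit was -0.21 with both scores and -0.18 with the macrophage score as covariates. Over all named genes, 559 values kept their direction and their side of the threshold, 217 lost the call, 2 gained it and 10 turned. No paired analysis was possible because the columns carry codes and no replicate numbers. Depth is unknown, so low values such as those of Maf and Il10 have no counting error.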
